A study of Homo sapiens with 4 samples.

Results

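The constitutive proteasome subunits are the 31 proteins that build the standard 26S proteasome, 14 of them in the core particle (PSMA1 to PSMA7 and PSMB1 to PSMB7) and 17 in the regulatory particle (PSMC1 to PSMC6 and 11 PSMD subunits). They were taken by name, and every gene probe whose transcript belongs to one of them was used, which gave 37 probes. On all 4 arrays all 37 probes were well above background, so that all 31 genes were among the 19550 genes tested. Expression was compared between control Ca9-22 cells and Ca9-22 cells with KPNA4 knockdown. Ca9-22 is a squamous carcinoma line of the oral mucosa, and KPNA4 encodes an importin-α, the adaptor that binds cargo proteins for import into the nucleus. Each group held 2 biological replicates, cultured in DMEM with serum and taken 3 days after transfection. The labels name siRNA as the agent, whereas the study's methods describe hairpin constructs for its knockdown lines, and the agent that the control cells received is given only as a negative control.

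The proteasome degrades proteins that carry ubiquitin chains. The α rings of the core particle form its outer gate, and the β rings enclose the catalytic sites, which are carried by PSMB5, PSMB6 and PSMB7. The regulatory particle caps the core: its non-ATPase subunits bind ubiquitin and remove the chain, and its ring of PSMC ATPases unfolds the substrate and opens the gate. Because the subunits are needed in fixed proportions, their genes are known to be expressed at matched levels and to be induced together, through NFE2L1, when proteasome activity is low.

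KPNA4 itself was at log2 4.02 and 4.03 above the 75th percentile of the array in the control cells and at 2.36 and 2.06 in the knockdown cells, and it fell by 1.82 on the log2 scale (SE 0.12, limma adjusted p = 0.00183). Here and throughout, a level is the log2 of the processed signal minus the log2 of that array's 75th percentile, and a log2 fold change is the knockdown mean minus the control mean of such levels. The 75th percentiles themselves were 1466 and 1381 in the control arrays and 1938 and 2096 in the knockdown arrays. With this scaling the median log2 fold change of all genes was -0.10, and without scaling it was 0.40, so directions are relative to the scaling. All 8 squamous epithelial markers were measured above background on every array, with a summed signal of 70.2 and 70.7 times the 75th percentile in the control cells and 74.3 and 74.4 times in the knockdown cells. This sum rests on the brightest probes, among them EPCAM, which fell by 0.51 on the log2 scale, while 5 of the 8 markers rose, KRT6A by 6.94, KRT14 by 1.39, KRT17 by 1.38, CDH1 by 1.16 and KRT5 by 1.00. The summed markers of fibroblasts were 0.144 and 0.148 in control against 0.331 and 0.347 in knockdown cells, with COL3A1 on none of the arrays. Those of leukocytes were 0.514 and 0.608 against 0.231 and 0.254, and those of endothelium were 0.0901 and 0.0960 against 0.0679 and 0.0643, with PECAM1 on none. The probe of RPS4Y1, a gene that only some cell lines carry, was above background on each of the 2 knockdown arrays and on neither control array. Whether both groups are the same line, and the part of these differences in the proteasome values, was not tested.

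Silencing of KPNA4 was accompanied by small changes in few proteasome subunits. Of the 31 subunits, 2 rose (PSMA4 and PSMD7), 6 fell (PSMA5, PSMB3, PSMB6, PSMD2, PSMD12 and PSMD14) and 23 did not pass an adjusted p of 0.05 (limma, Benjamini-Hochberg over 19550 genes). Over all genes tested, 20.3% were called higher and 29.5% lower, 49.8% in either direction, whereas the subunits had 6.45% called higher and 19.4% called lower. No subunit changed by 2-fold or more, which 1742 of the 19550 genes tested did. The log2 fold changes of the subunits had an SD of 0.24 around their median of -0.11, compared with an SD of 0.72 around -0.10 for all genes. Of the subunits, 15 lay above the median of all genes. In 24 of them the knockdown and control arrays did not overlap, 7 with the knockdown arrays higher and 17 with them lower, where 31.7% and 48.1% of all genes separated in these directions. The replicates were close, with a median difference between replicates of 0.059 in control and 0.035 in knockdown cells over the subunits, against 0.107 and 0.067 over all genes. The subunits were brighter than most genes, with median levels of 4.805 and 4.83 on the control arrays against -1.191 and -1.175 over all genes. Their spread, replicate differences and calls were not compared with those of genes of like brightness. Since these were bulk cultures, fewer cells with a transcript and less of it per cell cannot be told apart.

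**Figure D1:**
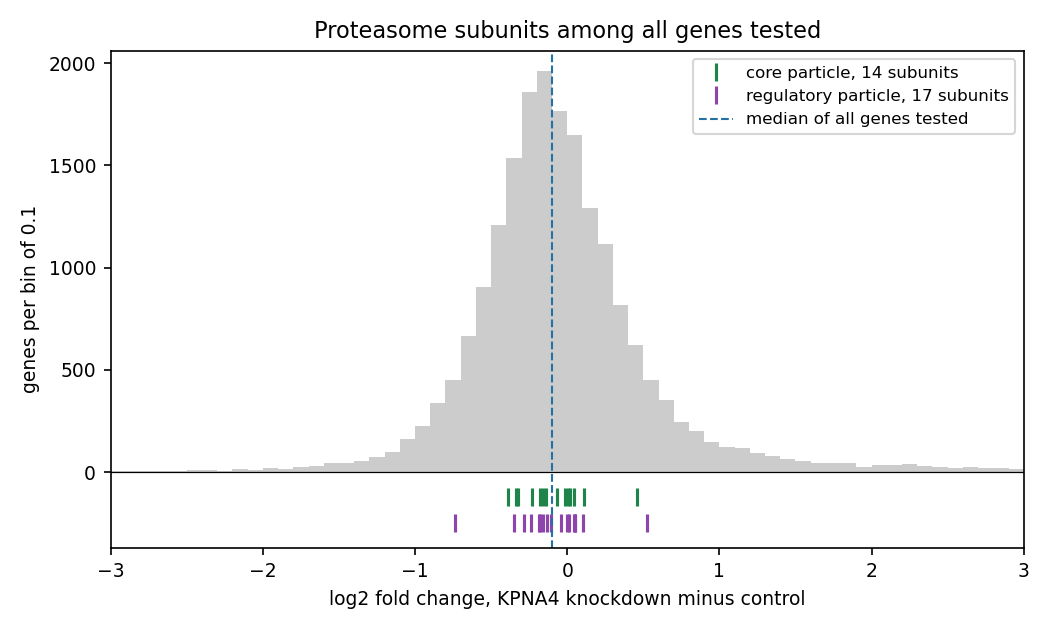
Distribution of log2 fold changes (knockdown minus control) of all 19550 genes tested, drawn from -3 to 3 with 165 genes lying outside, and the positions of the core particle and regulatory particle subunits. The subunits lie between -0.74 (PSMD12) and 0.53 (PSMD7), around the median of all genes.

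The core particle and the regulatory particle did not separate as groups. The median log2 fold change was -0.11 in each, with a range of -0.39 to 0.46 in the core and of -0.74 to 0.53 in the regulatory particle. In the core 1 of 14 subunits rose and 3 fell, and in the regulatory particle 1 of 17 rose and 3 fell. Of all genes, 20.3% were called higher and 29.5% lower. With 75th percentile scaling both medians were within 0.005 of the median of all genes. Median, spike-in or no scaling shifts every gene by the same amount, so this distance cannot differ between them and they do not test it. With quantile normalization they lay above it, by 0.15 in the core and by 0.07 in the regulatory particle, and with normexp background correction they were 0.63 below it. That last setting called 0 of 19550 genes by limma (1165 at an unadjusted p under 0.05), and knockdown replicate 2 held 12 spots with a bright local background.

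**Figure D2:**
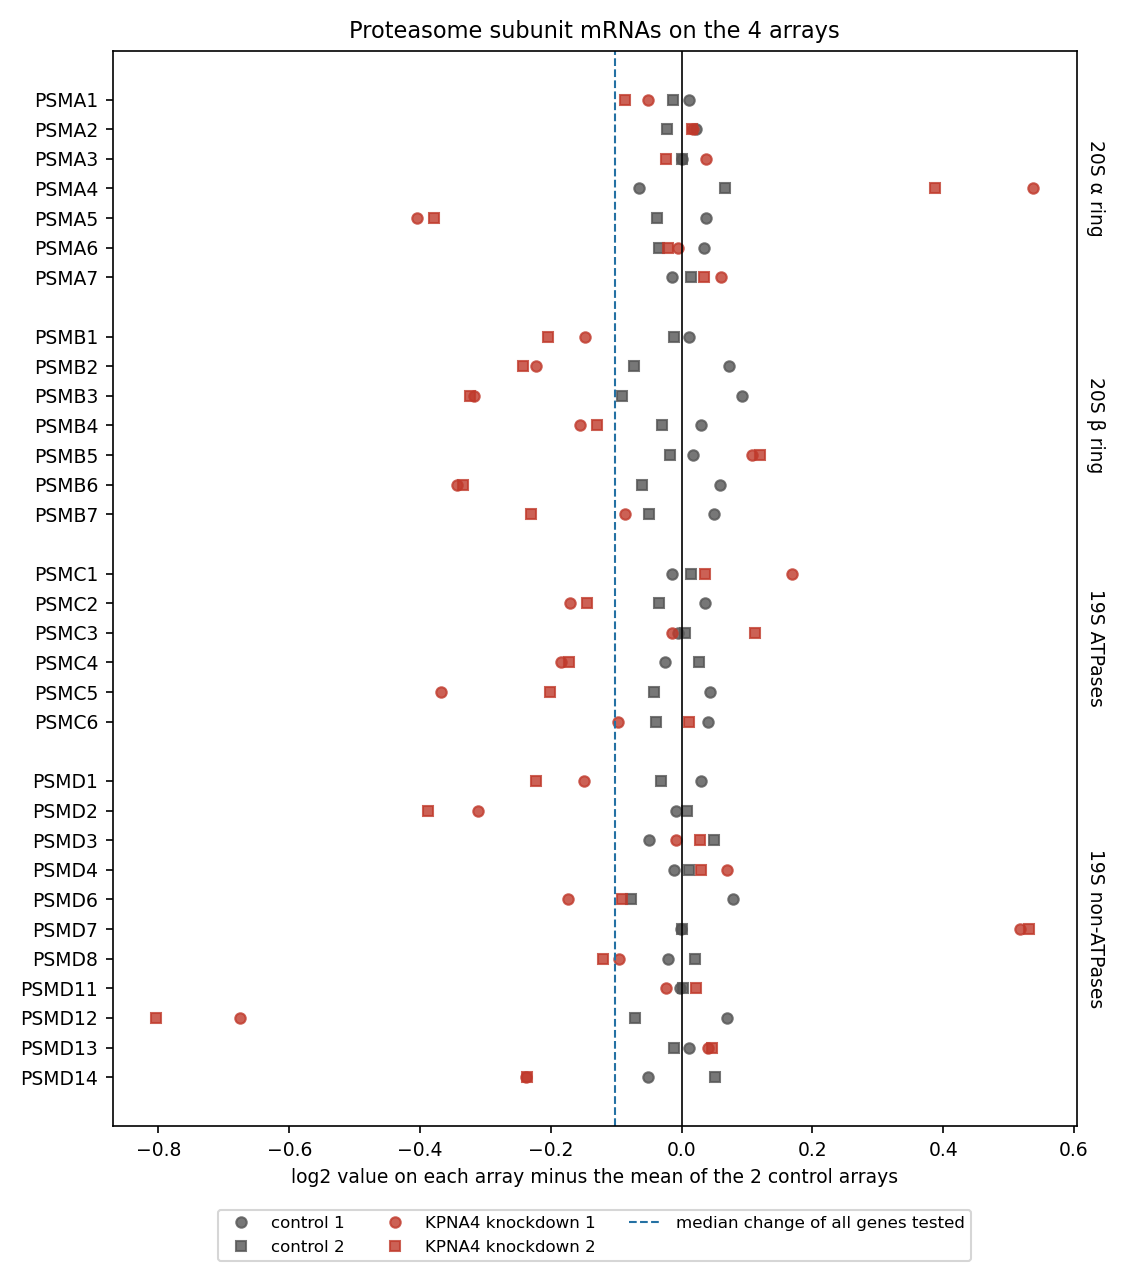
Level of each of the 31 subunits on the 2 control and the 2 knockdown arrays, minus its mean level on the control arrays. Levels are log2 signals relative to the 75th percentile of the array, and subunits are shown by ring and particle. The points of a subunit lie close together, and the widest separation of the groups is seen for PSMD12 and PSMD7.

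The 3 subunits that passed the threshold in the same direction under 75th percentile, median, quantile and spike-in scaling were PSMA4, PSMD7 and PSMD12. Their promoters, in windows that lie mostly before the annotated start and run past it, are shown because they are the genes on which the result turns, and because CCAAT boxes and antioxidant response element cores are the elements known from proteasome gene promoters. Sequences and coordinates are from RefSeq (GRCh38.p14), written 5′ to 3′ on the strand of the gene. Capitals mark a CCAAT box (CCAAT on either strand) or an antioxidant response element core (TGACNNNGC on either strand).
PSMA4, chr15:78540155-78540454, strand +: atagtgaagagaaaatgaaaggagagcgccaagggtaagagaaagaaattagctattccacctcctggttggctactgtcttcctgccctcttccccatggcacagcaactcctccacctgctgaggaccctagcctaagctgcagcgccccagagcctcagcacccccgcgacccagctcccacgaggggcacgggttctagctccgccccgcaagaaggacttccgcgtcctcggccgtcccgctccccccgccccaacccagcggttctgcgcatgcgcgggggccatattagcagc
PSMD7, chr16:74296564-74296863, strand +: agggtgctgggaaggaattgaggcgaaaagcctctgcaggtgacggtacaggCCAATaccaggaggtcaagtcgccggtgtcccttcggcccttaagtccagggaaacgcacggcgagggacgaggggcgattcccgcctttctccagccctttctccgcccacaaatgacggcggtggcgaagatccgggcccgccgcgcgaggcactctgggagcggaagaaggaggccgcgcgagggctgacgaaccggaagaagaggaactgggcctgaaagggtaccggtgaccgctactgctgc
PSMD12, chr17:67366528-67366827, strand -: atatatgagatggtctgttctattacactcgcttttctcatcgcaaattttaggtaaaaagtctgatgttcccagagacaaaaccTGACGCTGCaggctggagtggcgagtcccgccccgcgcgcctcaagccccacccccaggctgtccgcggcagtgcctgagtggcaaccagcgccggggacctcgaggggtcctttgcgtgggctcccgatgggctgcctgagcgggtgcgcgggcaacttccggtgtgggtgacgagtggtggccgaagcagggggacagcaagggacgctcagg
The PSMD7 window held 1 CCAAT box, which began at position -198 from the start, the PSMD12 window held 1 antioxidant response element core, which began at position -165, and the PSMA4 window held neither string of letters. Of the 31 subunits, 26 had a promoter in the RefSeq table. CCAAT was found in 14 of these 26 (53.8%), 6 of 10 in the core and 8 of 16 in the regulatory particle, compared with 35.7% of 27305 promoters of the same length. TGACNNNGC was found in 5 of 26 (19.2%), namely PSMB3, PSMC4, PSMD1, PSMD3 and PSMD12, compared with 13.6% of all promoters. Of these 5, PSMB3 and PSMD12 fell, and PSMC4, PSMD1 and PSMD3 did not pass the threshold. Of the 14 with CCAAT, PSMD7 rose, PSMA5, PSMB3 and PSMD14 fell, and the other 10 were not called. Of all genes 49.8% were called in either direction, and of the 31 subunits 6.45% were called higher and 19.4% lower. Called subunits with a promoter in the table were thus found with and without either string. PSMB6, also called, had no promoter in the table.

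In the α ring, 1 subunit rose, 1 fell and 5 were not called, where 20.3% of all genes were called higher and 29.5% lower. PSMA4 was at log2 3.92 and 4.05 in the control cells and at 4.52 and 4.37 in the knockdown cells. It rose by 0.46 (SE 0.09, 95% interval 0.22 to 0.71, limma adjusted p = 0.0185), a fold of 1.38, and the groups did not overlap. Without control replicate 1 the difference was 0.40 (adjusted p = 0.0659), without knockdown replicate 1 it was 0.39 (adjusted p = 0.0923), and without knockdown replicate 2 it was 0.54 (adjusted p = 0.0556, all limma). PSMA5 moved the other way, from 6.01 and 5.93 in the control cells to 5.57 and 5.59 in the knockdown cells. It fell by 0.39 (SE 0.06, 95% interval -0.56 to -0.22, limma adjusted p = 0.0117), again with no overlap between the groups. Both proteins are structural subunits of the gate ring, in which every α subunit occurs once, so opposite changes of their transcripts were seen within 1 ring. The other α subunits were within 0.07 of no difference: PSMA1 had a log2 fold change of -0.07, PSMA6 of -0.01, PSMA3 of 0.007, PSMA2 of 0.02 and PSMA7 of 0.05. The groups overlapped for PSMA2, PSMA3 and PSMA6. The median of the ring was 0.007, and 6 of its 7 subunits lay above the median of all genes.

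In the β ring, 2 subunits fell and none rose by the limma fit, and at an unadjusted p under 0.05 there were 4 of 7 lower and 0 higher, where 35.2% of all genes were lower and 23.3% higher. PSMB6, which carries the caspase-like site, was at 5.82 and 5.70 in the control cells and at 5.41 and 5.42 in the knockdown cells, and it fell by 0.34 (SE 0.07, 95% interval -0.53 to -0.15, limma adjusted p = 0.0213). PSMB3, a structural β subunit, was at 5.12 and 4.93 in the control cells and at 4.71 and 4.70 in the knockdown cells, and it fell by 0.32 (SE 0.08, 95% interval -0.55 to -0.09, limma adjusted p = 0.0396). The control replicates of PSMB3 differed by 0.18, the widest replicate difference in control cells among the subunits, and the groups still did not overlap. PSMB5, the chymotrypsin-like subunit against which proteasome inhibitors are directed, was at 5.30 and 5.26 in control and at 5.39 and 5.40 in knockdown cells. It was the single β subunit above the median of all genes, with a difference of 0.11 that was not called (95% interval -0.04 to 0.27, limma adjusted p = 0.165). PSMB7, the trypsin-like subunit, was at 6.18 and 6.08 in control and at 6.04 and 5.90 in knockdown cells, a difference of -0.16 (limma adjusted p = 0.179). The structural subunits PSMB1, PSMB2 and PSMB4 had differences of -0.18, -0.23 and -0.14 and were not called. In all 7 β subunits the groups did not overlap, 6 with lower knockdown arrays, and the median of the ring was -0.18. Of all genes, 48.1% separated with the knockdown arrays lower and 31.7% with them higher. The calls of PSMA5, PSMB3 and PSMB6 were lost with quantile normalization and with spike-in scaling, and the sign of all 3 turned without scaling between arrays (0.11, 0.18 and 0.16). They were also lost without either knockdown replicate, with limma adjusted p-values from 0.0760 to 0.163, and that of PSMB3 without control replicate 1 (-0.23, adjusted p = 0.0674).

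**Figure D3:**
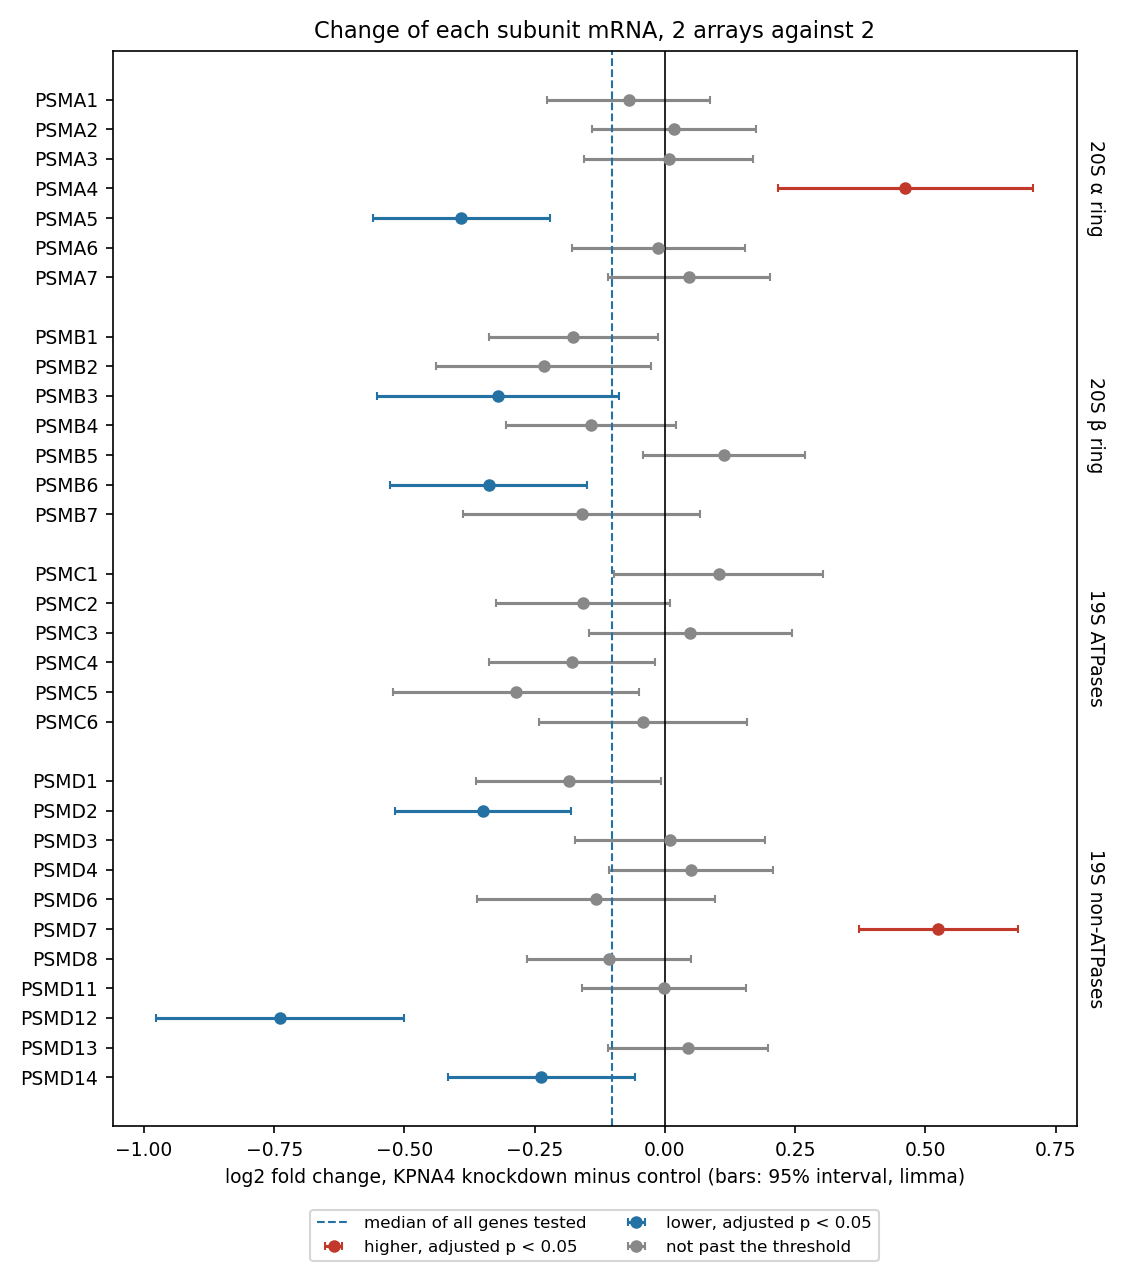
Log2 fold change (knockdown minus control) of each subunit with its 95% interval from limma, in order within its ring or group, with the median of all genes as a line. The intervals of PSMA4 and PSMD7 lie above 0, and those of PSMA5, PSMB3, PSMB6, PSMD2, PSMD12 and PSMD14 lie below 0 and are called.

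Each catalytic β subunit has an interferon-inducible counterpart that replaces it in the immunoproteasome, PSMB8 for PSMB5, PSMB9 for PSMB6 and PSMB10 for PSMB7. PSMB8 was at 1.48 and 1.54 in control and at 1.91 and 1.88 in knockdown cells, and it rose by 0.39 (limma adjusted p = 0.0113). PSMB10 was at 3.71 and 3.66 in control and at 4.04 and 4.02 in knockdown cells, and it rose by 0.35 (limma adjusted p = 0.0132). Without either knockdown replicate both calls were lost, with limma adjusted p-values of 0.0805 and 0.0766 for PSMB8 and of 0.0936 and 0.0885 for PSMB10. PSMB9 had a log2 fold change of -0.02 and was not called (limma adjusted p = 0.835). Probes differ in brightness, so that only the change of a ratio between groups is read here. The log2 ratio of PSMB10 to PSMB7 was -2.47 and -2.42 in control and -2.00 and -1.87 in knockdown cells, a difference of 0.51. That of PSMB9 to PSMB6 was -2.48 and -2.51 against -2.17 and -2.19, a difference of 0.32. That of PSMB8 to PSMB5 was -3.82 and -3.72 against -3.48 and -3.52, a difference of 0.27. In all 3 pairs the groups did not overlap, with the knockdown arrays higher. Such separation was frequent among single genes, 31.7% of which separated higher and 48.1% lower. The share over other ratios of 2 genes was not computed. Since PSMB9 was at -0.02, the rise of its ratio came from the fall of PSMB6 (-0.34), whose call was lost with quantile normalization and with spike-in scaling. Constant scalings, the filters, the mean over probes, the trend and robust options and the replicate block cannot change these differences. They do not test them, whereas quantile normalization, normexp and leaving out an array can move them. Over the 16 settings computed, the differences ranged from 0.40 to 0.59, from 0.24 to 0.37 and from 0.14 to 0.35. With 2 arrays against 2 the smallest two-sided p an exact permutation test allows is 0.333, so no p is given.

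**Figure D4:**
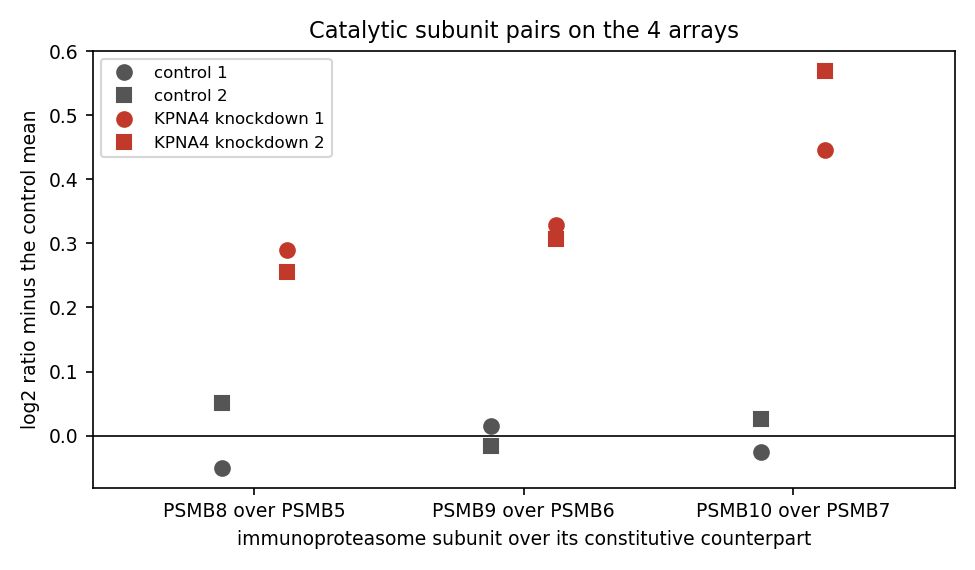
Log2 ratio of each immunoproteasome catalytic subunit to its constitutive counterpart on each of the 4 arrays, minus the pair's mean on the control arrays. In all 3 pairs both knockdown points lie above both control points, by 0.27 (PSMB8 to PSMB5), 0.32 (PSMB9 to PSMB6) and 0.51 (PSMB10 to PSMB7) on average. Among single genes, 31.7% separated with the knockdown arrays higher and 48.1% with them lower.

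None of the 6 ATPases of the regulatory particle passed the threshold in the limma fit, and 2 of 6 had an unadjusted p under 0.05, both lower, where 58.5% of all genes did in either direction. The lowest of them was PSMC5, at 2.85 and 2.76 in control and at 2.44 and 2.61 in knockdown cells, a difference of -0.28 (SE 0.09, limma adjusted p = 0.0550). PSMC4 (-0.18, limma adjusted p = 0.0659) and PSMC2 (-0.16, limma adjusted p = 0.0973) also lay lower without overlap between the groups. PSMC6 (-0.04) and PSMC3 (0.05) overlapped between the groups, and PSMC1 was at 0.10. The median over the ATPases was -0.10, the same as that of all genes, and their 95% intervals reached from -0.52 (PSMC5) to 0.30 (PSMC1).

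The non-ATPase subunits held the widest range, with 1 of 11 higher (9.09%) and 3 lower (27.3%), against 20.3% and 29.5% of all genes. PSMD12, a scaffold subunit of the lid of the regulatory particle, was at 4.43 and 4.29 in the control cells and at 3.69 and 3.56 in the knockdown cells. It fell by 0.74 (SE 0.09, 95% interval -0.98 to -0.50, limma adjusted p = 0.00591), which was the largest change of the 31 subunits and placed it at percentile 7.6 of all genes. PSMD7, a lid subunit that pairs with the deubiquitinase PSMD14, was at 3.83 and 3.83 in the control cells and at 4.35 and 4.36 in the knockdown cells. It rose by 0.53 (SE 0.06, 95% interval 0.37 to 0.68, limma adjusted p = 0.00473), at percentile 88.1 of all genes. Its probe was printed on 10 spots per array, of which 8 to 10 were kept. Single spots ranged from 3.74 to 3.92 on the control arrays and from 4.2 to 4.42 on the knockdown arrays, without overlap. The spots of an array read the same labelled RNA, so they are not further replicates. Relative to the median of all genes, PSMD7 was at 0.63 and PSMD12 at -0.64. PSMD7 and PSMD12 were also the 2 subunits called at an adjusted p of 0.01, and each stayed past 0.05 with any 1 array left out. Without scaling between arrays PSMD12 kept its sign at -0.24 but was not called (limma adjusted p = 0.118).

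PSMD14, which cleaves the ubiquitin chain from the substrate and is the partner of PSMD7, was at 4.87 and 4.97 in control and at 4.68 and 4.68 in knockdown cells. It fell by 0.24 (SE 0.07, 95% interval -0.42 to -0.06, limma adjusted p = 0.0447), so that the transcripts of this pair changed in opposite directions. PSMD2, the large base subunit that docks ubiquitin shuttles, was at 6.55 and 6.57 in control and at 6.25 and 6.17 in knockdown cells, and it fell by 0.35 (SE 0.06, 95% interval -0.52 to -0.18, limma adjusted p = 0.0149). Both calls were lost with quantile normalization and with spike-in scaling, and their sign turned without scaling (0.27 for PSMD14 and 0.15 for PSMD2). Leaving out control replicate 2 or either knockdown replicate also ended both, with limma adjusted p-values from 0.0522 to 0.199. PSMD1, the other large base subunit, had a difference of -0.19 (limma adjusted p = 0.0769). PSMD6, also measured on 10 spots, was at 3.04 and 2.88 in control and at 2.78 and 2.87 in knockdown cells, a difference of -0.13 (limma adjusted p = 0.246). Its single spots overlapped between the groups, from 2.79 to 2.97 on control array 2 and from 2.75 to 2.9 on knockdown array 2. PSMD8 was at -0.11, and the ubiquitin receptor PSMD4 at 0.05. PSMD13 was at 0.04, PSMD3 at 0.009 and PSMD11 at -0.001, and the groups overlapped for PSMD3 and PSMD11. The lid subunits thus held both the largest rise and the largest fall of the proteasome, beside members with almost no difference.

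For 6 subunits a second probe was read, and the probe fit called 20% of 24198 probes higher and 28.3% lower. The brighter probe, which stands for the gene, and the second probe of PSMD2 had like differences (-0.35 and -0.33), but the second was not called (limma adjusted p = 0.119). The second probe of PSMC1 was called higher (0.22, limma adjusted p = 0.0393), where the brighter one was not (0.10). PSMB1 differed in sign between its probes (-0.18 and 0.05), and neither was called. For PSMD1 the second probe was at -0.48 against -0.19, for PSMA1 at -0.19 against -0.07 and for PSMB2 at -0.12 against -0.23, with none called. PSMA4, PSMD7 and PSMD12 had 1 probe each. Of the 31 subunits, 18 share their name with 1 or more RefSeq pseudogenes, 42 in all, 4 of them of PSMD7 and 13 of PSMC1, and probes could not be checked for matches to these copies.

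The other genes of the pathway moved in both directions, and their counts stand against 20.3% of all genes called higher and 29.5% lower. Of 5 immunoproteasome and tissue-specific core subunits, 4 were tested, and PSMB8 and PSMB10 rose, as above. Of 9 assembly chaperones, 2 rose, PSMG3 by 0.25 and PSMD9 by 0.22, and 2 fell, PAAF1 by 0.40 and PSMG4 by 0.31 on the log2 scale. PSMG3 and PSMG4 form a dimer that assists α ring assembly, and they changed in opposite directions. The calls of PSMG3, PSMD9 and PSMG4 were lost with any 1 array left out, and that of PAAF1 without either knockdown replicate. With median scaling PSMG3 (limma adjusted p = 0.0565) and PSMD9 (limma adjusted p = 0.0592) were not called. Averaged over its probes, PSMD9 was at 0.66 and PSMG4 at -0.55. Of 5 alternative activators and inhibitors, only PSME1, an interferon-inducible subunit of the 11S activator, was called. It was at 0.19 and 0.06 in control and at 0.86 and 0.75 in knockdown cells, and it rose by 0.68 (limma adjusted p = 0.00626). PSME2, in the same list and on a brighter probe, had a mean of 6.23 in control and 6.20 in knockdown cells. It was not called (log2 fold change -0.03, limma adjusted p = 0.7815).

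Among the 6 tested proteins that belong to or bind the regulatory particle, USP14, a deubiquitinase that trims chains on the proteasome, rose by 0.95 (limma adjusted p = 0.00367), and UBE3C, a proteasome-bound ubiquitin ligase, rose by 0.50. ADRM1, a ubiquitin receptor, fell by 0.48. USP14 had 1 probe, at -2.46 and -2.64 in control and at -1.64 and -1.57 in knockdown cells, below the median level of all genes. Of 6 tested factors that transcribe or activate proteasome genes, NFYA rose by 0.37 and NFYC fell by 0.67 (limma adjusted p = 0.00296), both subunits of the factor that binds CCAAT. NFE2L1 had a difference of 0.09 and was not called. Averaged over their probes, NFYA was at 0.27, NFYC at -0.45 and UBE3C at 0.34, each smaller than on the brightest probe. The probe mean of PAAF1 was -0.39, and that of RAD23B was larger in size, at -0.50. Of the 14 genes for ubiquitin, its activating enzymes and the shuttles to the proteasome, 7 fell and none rose in the limma fit, with a median of -0.21. The counts were the same, 7 and 0 of 14, at an unadjusted p under 0.05 (35.2% and 23.3% of all genes). Without control replicate 1 or 2 there were 5 and 4 lower calls, without knockdown replicate 1 there was 1, and without knockdown replicate 2 there were 0. They included RPS27A, which encodes ubiquitin fused to a ribosomal protein (-0.53), the shuttle RAD23B (-0.46) and the activating enzyme UBA1 (-0.22). The calls of PSME1, USP14 and NFYC held with any 1 array left out. Those of ADRM1, NFYA, RAD23B and UBA1 were lost without either knockdown replicate, and those of UBE3C and RPS27A without knockdown replicate 2. NFYA was also lost without control replicate 1 (limma adjusted p = 0.0531), and UBA1 without either control replicate. The signs of PSMB8, PSMB10, PSMG3, PSMD9, PSME1, USP14, UBE3C, NFYA, NFYC and RPS27A were the same under all settings tried, whereas PAAF1, PSMG4, ADRM1, UBA1 and RAD23B turned without scaling. With spike-in scaling the calls of the assembly chaperones, of ADRM1 and of the ubiquitin genes were lost.

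**Figure D5:**
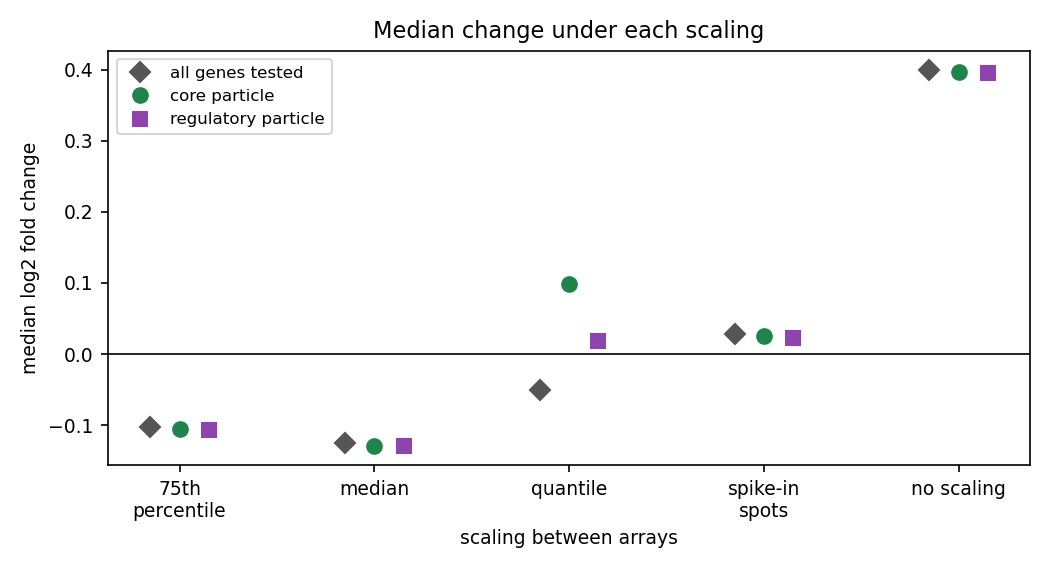
Median log2 fold change (knockdown minus control) of the core particle, the regulatory particle and all genes tested under each scaling between arrays, including no scaling. With constant scalings the 3 medians necessarily shift together, from -0.13 with median scaling to 0.40 without scaling, whereas quantile normalization sets the subunits apart from all genes.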

How the data were processed

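RNA from 2 control and 2 KPNA4 knockdown cultures of Ca9-22 cells was labelled with Cy3 and hybridized to Agilent 1-colour arrays. The authors deposited Feature Extraction 11.0.1.1 output, from which the processed signal intensity was taken, and a table that was found to hold the ratio of that signal to the 75th percentile of the array. The log2 of the intensity was taken, control and outlier-flagged spots were left out (333 to 355 of 43118 gene spots were flagged per array, and no gene spot was saturated), values were averaged over a probe's spots, and the array's 75th percentile was subtracted. Probes had to be well above background on the 2 arrays of either group (per array, 70.2% to 71% of 34127 probes were), and a gene was represented by its brightest kept probe. Probes were named through RefSeq accessions (25771 matched). Groups were compared with limma 3.58.1 (lmFit and eBayes) in R 4.3.3, with Benjamini-Hochberg adjustment over 19550 genes at 0.05. The procedure was tested on simulated data. The 2 arrays per group limit the precision. Members and lists were chosen with earlier results of these data known. Genes named are all members, KPNA4, and in each other list up to 2 called genes with the highest and 2 with the lowest change. PSMB9, PSME2, NFE2L1, RPS4Y1 and single markers were named for their role or after their values were seen. Some genes of the lists are not reported here. The alternatives were 4 other scalings, normexp (offset 50), the deposited ratio, filters, the mean over probes, trend and robust options, a replicate block, a threshold of 0.01 and leaving out each array. A normexp fit without spots whose local background was above 100 was added after the data were seen.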

Additional observations from a re-analysis of the deposited data

How the results depend on the processing

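Of the 31 subunits, 3 (PSMA4, PSMD7 and PSMD12) kept their sign under every setting. By count, core subunits called higher were 1 as reported, 4 with quantile normalization, 10 without scaling, 0 with normexp and 0 at an adjusted p of 0.01. Core subunits called lower were 3 as reported, 0 with quantile, no or spike-in scaling, normexp or the threshold of 0.01, 1 with no filter on dim probes and 6 with the trend and robust options. Regulatory subunits called higher were 1, and 3, 13 and 0 with quantile normalization, no scaling and normexp. Those called lower were 3, and 1 with quantile or spike-in scaling or the threshold of 0.01. They were 0 without scaling or with normexp, and 7 with the trend and robust options. Of the 19550 genes, 3973 were called higher and 5766 lower as reported, 4357 and 4898 with quantile normalization and 11257 and 1048 without scaling. There were 3880 and 2660 with spike-in scaling, 4343 and 6317 with the trend and robust options, and 2130 and 2339 at 0.01. With no filter on dim probes there were 3059 and 4289 of 27707 genes. With any 1 array left out, fewer of all genes were called in both directions as well. Leaving out 1 array gave 0 to 1 core subunits higher, 0 to 4 lower, and 1 to 1 regulatory subunits higher and 1 to 3 lower. Without knockdown replicate 1, and likewise without knockdown replicate 2, PSMD7 and PSMD12 alone were called. The core median was 0.10 with quantile, 0.40 with no, 0.025 with spike-in and -0.13 with median scaling, -0.34 with normexp, -0.08 with normexp without spots in bright surroundings (chosen after seeing the data) and -0.127 to -0.069 with 1 array left out. The regulatory median was 0.02, 0.39 and 0.02 with quantile, no and spike-in scaling, -0.33 with normexp and -0.10 to -0.05 with 1 array left out. With normexp KPNA4 was at -1.96 and was not called, since limma then called 0 of 19550 genes (1165 at an unadjusted p under 0.05).

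With quantile normalization the log2 fold change took the other sign for PSMA1 0.11, PSMA6 0.19, PSMB1 0.088, PSMB4 0.046, PSMB7 0.068, PSMC6 0.08, PSMD8 0.018 and PSMD11 0.12. Without scaling the log2 fold change took the other sign for PSMA1 0.43, PSMA5 0.11, PSMA6 0.49, PSMB1 0.33, PSMB2 0.27, PSMB3 0.18, PSMB4 0.36, PSMB6 0.16, PSMB7 0.34, PSMC2 0.34, PSMC4 0.32, PSMC5 0.22, PSMC6 0.46, PSMD1 0.32, PSMD2 0.15, PSMD6 0.37, PSMD8 0.40, PSMD11 0.50, PSMD14 0.27, PAAF1 0.10, PSMG4 0.20, ADRM1 0.019, UBA1 0.28 and RAD23B 0.046. With spike-in scaling the log2 fold change took the other sign for PSMA1 0.061, PSMA6 0.12, PSMC6 0.088, PSMD8 0.023 and PSMD11 0.13. With median scaling the log2 fold change took the other sign for PSMA2 -0.006, PSMA3 -0.016 and PSMD3 -0.014. With normexp the log2 fold change took the other sign for PSMA2 -0.19, PSMA3 -0.30, PSMA7 -0.17, PSMB5 -0.13, PSMC1 -0.14, PSMC3 -0.16, PSMD3 -0.16, PSMD4 -0.15 and PSMD13 -0.14. Without bright surroundings the log2 fold change took the other sign for PSMA3 -0.04 and PSMD11 0.022. With 1 array left out, its sign varied for PSMA2 -0.006 to 0.04, PSMA3 -0.024 to 0.038, PSMA6 -0.047 to 0.022, PSMC3 -0.015 to 0.11, PSMC6 -0.10 to 0.012, PSMD3 -0.041 to 0.059 and PSMD11 -0.024 to 0.022.

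With the replicate number as a block, 3262 genes were called higher and 4639 lower, and of the subunits 2 higher and 4 lower, with PSMB3 (adjusted p = 0.0620) and PSMD14 (adjusted p = 0.0911) no longer called by limma. Deviations of same-numbered arrays had a correlation of -0.03 in the only pair that can be formed, so the numbers are not taken as a pairing. The cause of the changes above was not tested. The 2 arrays per group limit what can be called among differences of this size.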
